A study of Caenorhabditis elegans with 2 samples.

Results

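The translation initiation factor and eIF5A genes of C. elegans were examined as binding targets of PHA-4, a forkhead protein of the FoxA family best known as the selector of pharyngeal cell fate. The 10 genes were the eIF5A genes iff-1 and iff-2, the cap-binding eIF4E genes ife-1 to ife-5, the eIF4G gene ifg-1, the eIF4H-like gene drr-2 and the eIF4E-binding repressor gene ifet-1. They are 10 of 19973 nuclear protein-coding genes, and all 10 symbols were found in the annotation. Every entry was taken whose summit lay between 2000 bp upstream of a gene's 5' end and its 3' end. The genes were chosen by their PHA-4 peak signals and ranks in these same lists, so those values are a description and no test was made on them.

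The data came from chromatin immunoprecipitation and sequencing of whole embryos, of mixed stage, pooled sex and unknown age, from strain OP37. That strain carries the unc-119(ed3) allele on chromosome III and the integrated array wgIs37, which supplies PHA-4 fused to eGFP, while the antibody field names pha-4. Its 2 biological replicates form 1 group, with no untagged or untreated group among the samples. In whole embryos, a higher signal from more bound cells and from more binding per cell cannot be told apart, and the lists do not show in which cells a site was bound. There were 30000 entries for each replicate and 21931 for both combined (pooled). The irreproducible discovery rate (IDR) kept 2177 of the latter, called thresholded here. Signal is the peak caller's own value against control reads, rank 1 is the strongest entry of a list, and lists are not scaled to each other. The depth behind each value is unknown, since no read totals were used here.

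Cap-dependent translation begins when eIF4E binds the cap of an mRNA and eIF4G joins it to the helicase eIF4A and, through eIF3, to the small ribosomal subunit. eIF4H assists the helicase, and 4E-T proteins such as IFET-1 hold eIF4E in repressed complexes, above all in the germ line. eIF5A, which carries the modified lysine hypusine, acts on ribosomes that stall during elongation and at termination. Several of these factors, and PHA-4 itself, are known from studies of lifespan and diet restriction in the worm.

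The 10 genes fell into 3 levels. The strongest entries at ifet-1, iff-2 and drr-2 stood among the strongest sites of the embryo, at pooled ranks 7, 10 and 30. All 3 also lay in the promoter of a divergent neighbour, and the entry at ifet-1 lay nearer to rps-1 than to ifet-1. The strongest entries of ife-4, ifg-1, iff-1 and ife-2 lay near the end of the thresholded set, at ranks 1712, 1715, 1849 and 1883 of 2177. Those of ife-3, ife-5 and ife-1 lay below it, at pooled ranks 3013, 5137 and 8670. In all, 7 of the 10 genes had a thresholded entry, against 12.9% of all protein-coding genes in the same window, and all 10 had a pooled entry of some kind, against 58.2%. The count was 7 with 1000 bp upstream (10.4% of all genes) and with any overlap of the interval (13.4%), 5 with 500 bp upstream (8.89%) and 3 among the stronger 1088 thresholded entries (6.91%). An entry of rank 100 or better was present at 3 of the 10, against 0.766% of all genes. The median of the strongest pooled signal was 41.2 over the 10 genes and 16.2 over the 11631 protein-coding genes with any pooled entry. The genes were chosen with these values known, so the shares are read as a description only.

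**Figure D1:**
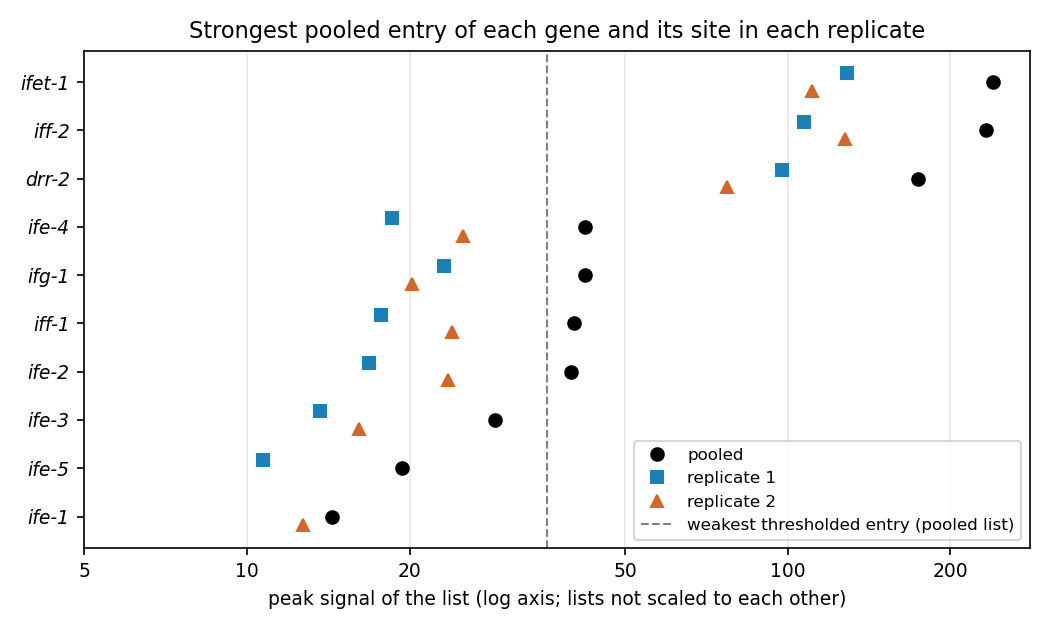
Peak signal (log axis) of the strongest pooled entry of each of the 10 genes (black circles) and of the entry at the same site in replicate 1 (blue squares) and replicate 2 (orange triangles). The pooled values of ifet-1 (240.0), iff-2 (233) and drr-2 (174) stand apart from the next, 42.2 at ife-4, and those of ife-3, ife-5 and ife-1 lie left of the dashed line at the weakest thresholded entry (35.9).

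The sequences under the 3 strongest entries are shown because they carry the strongest binding of the group. They are the called intervals on ce11, read 5' to 3' on the minus strand, which is the coding strand of all 3 genes, from the RefSeq copy of the assembly. For iff-2 the annotated 5' untranslated bases at the end were left out. The intervals are chrII:8561368-8561522 for iff-2, chrIII:4475568-4475742 for ifet-1 and chrIII:13643653-13643795 for drr-2. Capitals mark the motifs searched, on either strand. They include the published 7-letter PHA-4 consensus (T, then A or G, then TT, then G or T, then A or G, then C or T). They also include the words GAGAGA and GACGCAGA, which read TCTCTC and TCTGCGTC when they lie on the opposite strand.
iff-2: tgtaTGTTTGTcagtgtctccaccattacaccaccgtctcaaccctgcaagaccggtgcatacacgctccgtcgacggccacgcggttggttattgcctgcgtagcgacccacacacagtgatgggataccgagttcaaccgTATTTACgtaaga
ifet-1: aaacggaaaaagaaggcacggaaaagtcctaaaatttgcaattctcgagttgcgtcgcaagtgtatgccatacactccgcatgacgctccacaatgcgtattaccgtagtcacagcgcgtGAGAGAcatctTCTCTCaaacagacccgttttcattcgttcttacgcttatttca
drr-2: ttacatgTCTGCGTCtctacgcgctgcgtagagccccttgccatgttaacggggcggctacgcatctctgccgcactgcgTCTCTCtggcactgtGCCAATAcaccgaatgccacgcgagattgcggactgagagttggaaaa

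The entries near the threshold, except that of ifg-1, are shown for comparison as 121 bp centred on the summit, on the coding strand. They are chrIII:9747253-9747373 (minus strand) for iff-1, chrX:382819-382939 (minus strand) for ife-2 and chrX:1103846-1103966 (plus strand) for ife-4. The ifg-1 summit lies in an untranslated region of its neighbour M110.3, and the 201 bp centred on that summit held none of the motifs searched. The entry of ife-3, at pooled rank 3013 the nearest of the 10 genes below the threshold, is shown at chrV:8721-8841 (minus strand). Capitals have the same meaning as above, and in ife-2 they include TGTTTGC, a strict FoxA site.
iff-1: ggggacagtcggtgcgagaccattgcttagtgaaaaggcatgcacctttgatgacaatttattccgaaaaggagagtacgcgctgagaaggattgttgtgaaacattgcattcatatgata
ife-2: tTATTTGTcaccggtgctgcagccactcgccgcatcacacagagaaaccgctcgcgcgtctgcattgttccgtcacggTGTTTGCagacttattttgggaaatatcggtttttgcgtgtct
ife-4: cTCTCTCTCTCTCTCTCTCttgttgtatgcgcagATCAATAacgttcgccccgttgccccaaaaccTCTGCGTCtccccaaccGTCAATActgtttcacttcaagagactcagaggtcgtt
ife-3: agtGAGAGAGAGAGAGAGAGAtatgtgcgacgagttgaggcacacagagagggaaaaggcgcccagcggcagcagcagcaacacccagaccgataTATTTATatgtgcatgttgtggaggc

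The eIF5A genes were bound very unequally. The gene iff-2, the somatic eIF5A, lies on chromosome II at 8559375 to 8561367 on the minus strand (WBGene00002065). Its only pooled entry, at II 8561353 to 8561522, had its summit 71 bp upstream of the 5' end. The signal there was 233 in the pooled list, 107 in replicate 1 and 128 in replicate 2, at ranks 10, 12 and 8. Both replicates thus placed it among their 12 strongest entries, with summits 6 bp and 2 bp from the pooled summit. The only other entries in its window were a replicate 1 entry of signal 4.94, 1491 bp upstream, and a replicate 2 entry of signal 5.87 in the coding sequence.

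The paralogue iff-1, the germline eIF5A, lies on chromosome III at 9745862 to 9747193 on the minus strand (WBGene00002064). Its strongest entry, at III 9747181 to 9747444, had a pooled signal of 40.25 at rank 1849, and its summit lay 120 bp upstream. Replicate 1 gave 17.7 (rank 1951) and replicate 2 gave 24.0 (rank 1839). The site is thus present in both replicates and close to the end of the strong entries in each. The promoter is shared: the summit lies in the 278 bp between iff-1 and cdk-1, the gene of the cell cycle kinase CDK1, which is read in the opposite direction and whose 5' end is 159 bp away. Weaker pooled entries lay in the cdk-1 coding sequence (12.1) and in an iff-1 intron (10.6).

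The repressor gene ifet-1 held the strongest entry of the 10. It lies on chromosome III at 4471411 to 4475150 on the minus strand (WBGene00004132), and its protein is the worm 4E-T, which keeps maternal mRNAs silent. The entry at III 4475568 to 4475742 had a pooled signal of 240.0, with 129 in replicate 1 (rank 3) and 111 in replicate 2 (rank 15). Its summits in the replicates lay 1 bp and 5 bp from the pooled summit. This summit is nearer to another gene: it lies 508 bp upstream of ifet-1 and 260 bp upstream of rps-1, a ribosomal protein gene of the small subunit that is read the other way. The non-coding RNA gene F56F3.10 (III 4475576 to 4475782) covers the summit, and F56F3.11 overlaps the interval. The peak cannot be assigned to any of these genes from position alone. Inside ifet-1 itself there were weaker pooled entries in the coding sequence, of 18.9 and 14.3. The stronger of these came with a replicate 2 entry of 18.4 (rank 2898) and no replicate 1 entry at that site.

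The eIF4H-like gene drr-2, known for its part in the response of lifespan to diet restriction, lies on chromosome III at 13642420 to 13643570 on the minus strand (WBGene00011730). Its entry at III 13643653 to 13643795 had a pooled signal of 174 at rank 30. Replicate 1 gave 97.6 (rank 22) and replicate 2 gave 77.1 (rank 77). Both are among the strongest 100 of their list, though the rank in replicate 2 is lower. The summit lies almost midway between drr-2 (165 bp) and the divergent neighbour set-16 (181 bp), an MLL-type histone H3 lysine methyltransferase gene. Weaker pooled entries of 12.8 and 10.1 lay in introns of set-16.

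The scaffold gene ifg-1 encodes the eIF4G of the worm and lies on chromosome II at 8217222 to 8222396 on the plus strand (WBGene00002066). Its entry at II 8216425 to 8216688 had a pooled signal of 42.2 at rank 1715, with 23.1 in replicate 1 (rank 1277) and 20.2 in replicate 2 (rank 2496). In replicate 2 the site therefore falls outside the 2177 strongest entries. The summit lies 665 bp upstream of ifg-1 and in an untranslated region of M110.3, the divergent neighbour, 59 bp downstream of its 5' end. Of the 7 thresholded entries it is the only one whose summit lies in a transcribed exon of a protein-coding gene. Entries within ifg-1 reached at most 9.92 in the pooled list.

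Among the 5 eIF4E genes, only ife-4 and ife-2 had a thresholded entry, and both are on the X chromosome. The gene ife-4, which is expressed in somatic tissue including neurons and muscle, lies at X 1104212 to 1106251 on the plus strand (WBGene00002062). Its entry at X 1103774 to 1104037 had a pooled signal of 42.2, with 18.5 in replicate 1 (rank 1838) and 25.1 in replicate 2 (rank 1690). The gene ife-2, a somatic eIF4E known for its effect on lifespan, lies at X 381385 to 382709 on the minus strand (WBGene00002060). Its entry at X 382747 to 383010 had a pooled signal of 39.75, with 16.8 in replicate 1 (rank 2101) and 23.5 in replicate 2 (rank 1903). The summits lay 306 bp upstream of ife-4 and 170 bp upstream of ife-2, and no other protein-coding promoter held either. The ife-2 summit of replicate 2 lay 105 bp from the pooled summit, the largest shift among the 7 thresholded entries.

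The other eIF4E genes had only entries below the threshold, and the strongest of these did not lie within 500 bp upstream of the gene. The gene ife-3, whose product is the eIF4E most like that of mammals, lies at V 6584 to 7828 on the minus strand (WBGene00002061). Its strongest entry had a pooled signal of 28.8, 13.65 in replicate 1 (rank 2786) and 16.1 in replicate 2 (rank 3660). That summit lies 953 bp upstream of ife-3 but 42 bp upstream of B0348.10. The gene ife-5 lies at II 12280660 to 12284139 on the plus strand (WBGene00002063), 64 bp downstream of Y57A10A.29 on the same strand. Its strongest entry (19.4, with 10.7 in replicate 1 and no entry in replicate 2) lay 1308 bp upstream, in the coding sequence of tric-1B.2. That summit lies in the promoter windows of tric-1B.2 (35 bp downstream of its 5' end) and Y57A10A.29 (209 bp upstream), and not in that of ife-5. The germline gene ife-1, whose protein binds the P granule protein PGL-1 and serves sperm formation, lies at III 13343417 to 13344618 on the plus strand (WBGene00002059). It had 1 pooled entry, of 14.4, in an intron 900 bp downstream of its 5' end, with 12.7 in replicate 2 and none in replicate 1. This summit lies in the promoter window of acaa-2, 620 bp upstream of its 5' end. On either side of the threshold, which fell between pooled signals of 35.91 and 35.90, the nearest of the 10 genes were thus ife-2 at 39.75 and ife-3 at 28.8.

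**Figure D2:**
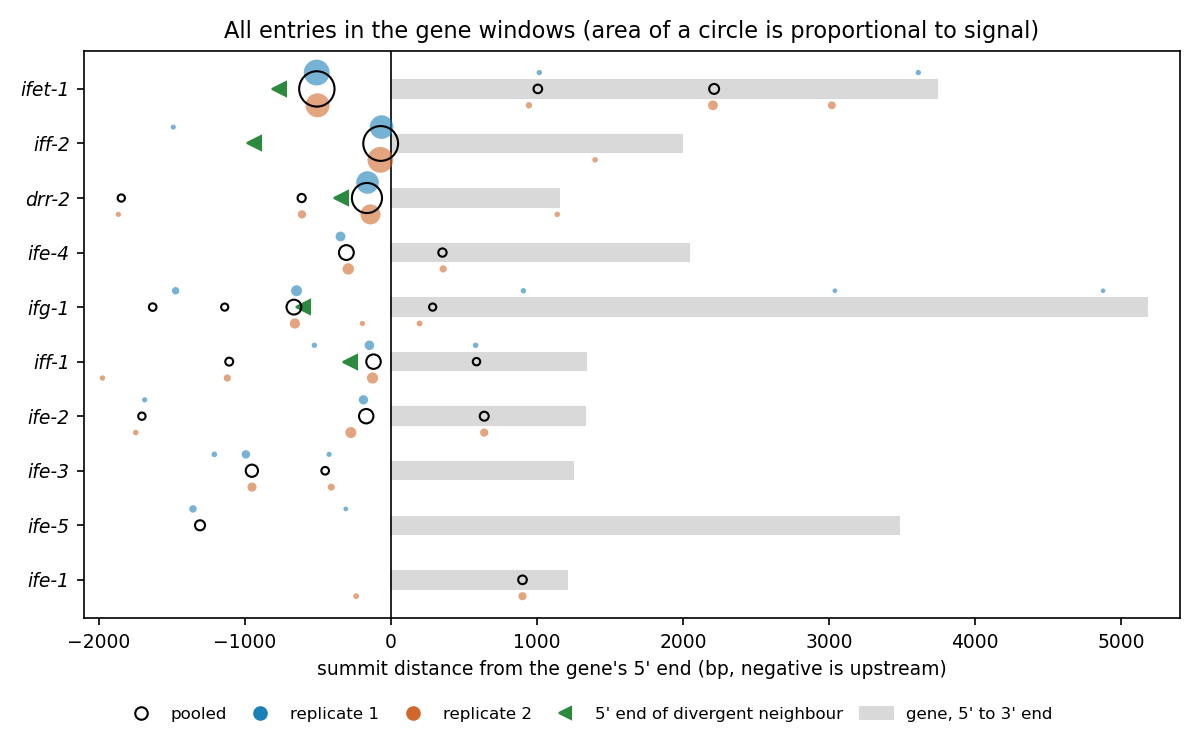
Summit positions of all entries in the windows of the 10 genes, by distance from the gene's annotated 5' end in bp, for the pooled list (open circles), replicate 1 (blue) and replicate 2 (orange), with circle area proportional to signal, grey bars for the genes and green triangles for the 5' ends of divergent upstream neighbours. The large circles lie upstream of the 5' end, from -71 bp at iff-2 to -508 bp at ifet-1, and the circles inside genes are small.

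The windows together held 23 pooled entries, 22 entries of replicate 1 and 25 of replicate 2. Each gene with a thresholded entry had exactly 1. The 16 pooled entries below the threshold ran from 9.75 to 28.8, with a median of 12.4, and 7 of them lay inside the gene, at 9.92 to 18.9. At ifet-1 and drr-2 the strongest pooled signal was 12.7 and 13.6 times the second, whereas at ife-2, ife-4, iff-1 and ifg-1 it was 2.58 to 3.85 times. In the pooled list, the strongest entry of each of the 7 thresholded genes was upstream, and was the only one or at least 2.58 times the next. These 7 genes were taken for holding a thresholded entry, and the same ratio over other such genes is not given here. The intervals of the 3 strongest entries were narrow, 170 bp at iff-2, 175 bp at ifet-1 and 143 bp at drr-2, and the others had the usual pooled width of 264 bp. That width held for 91.5% of the thresholded set, while 90 of its 100 strongest entries were narrower.

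**Figure D3:**
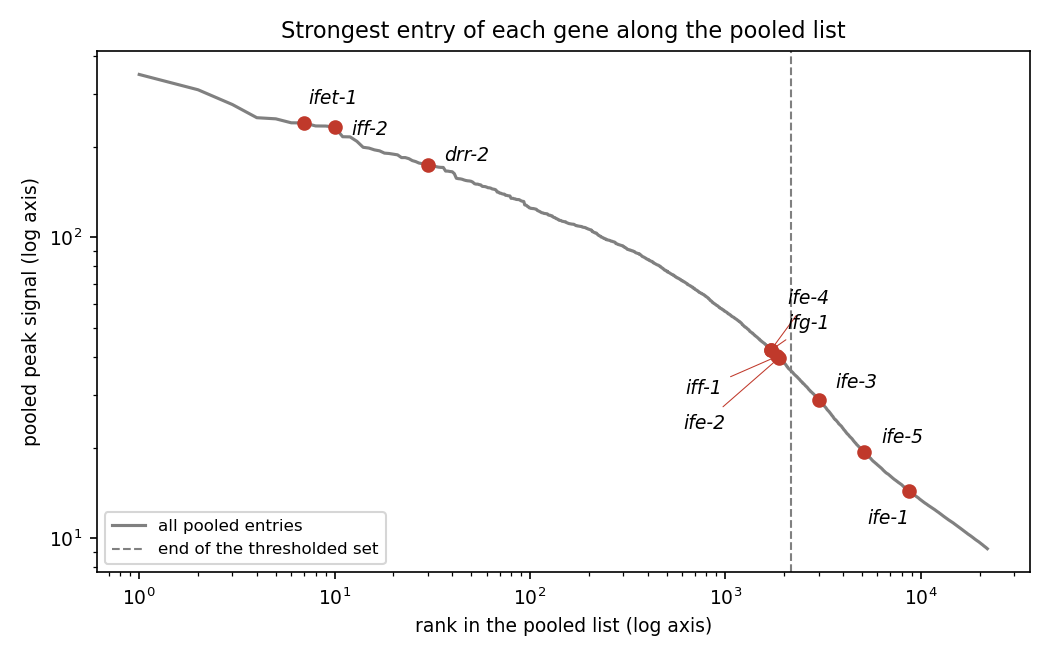
Pooled signal against rank in the pooled list (both log axes) for all 21931 entries (grey line), with the strongest entry of each of the 10 genes in red and a dashed line at the end of the 2177 thresholded entries. The genes ifet-1, iff-2 and drr-2 lie on the upper part of the curve, and 4 genes lie close together just before the dashed line.

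Promoters were often shared with a neighbour. Of the 7 thresholded entries, 5 lay in the promoter window (1000 bp upstream to 200 bp downstream of a 5' end) of another protein-coding gene. In each case that gene was divergent: cdk-1 at iff-1, F54C9.14 at iff-2, rps-1 at ifet-1, set-16 at drr-2 and M110.3 at ifg-1. Across the thresholded set, 475 of 1363 promoter summits (34.8%) lay in the windows of more than 1 gene, and 448 (32.9%) in windows on both strands. The sharing differed in closeness. At iff-2 the neighbour's 5' end was 864 bp from the summit and iff-2's own only 71 bp. At ifet-1 and ifg-1 the neighbour's 5' end was the nearer. When each entry was given only to the nearest 5' end, iff-1, iff-2, drr-2, ife-2 and ife-4 kept a thresholded entry, against 8.28% of all genes.

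The replicates were compared site by site. For 6 of the 7 genes, all but ifg-1, the site had an entry among the 2177 strongest of each replicate. The share of the whole thresholded set that meets this rule is not given here. The set was derived from both replicates, so the count is a description only. With all replicate entries counted, all 7 sites had an entry in each replicate, as had 2153 of the 2177 thresholded entries. Counted by gene window, 7 of the 10 genes had such an entry in replicate 1 (13.3% of all genes) and 6 in replicate 2 (12% of all genes). The ratio of replicate 2 to replicate 1 signal was 0.861 at ifet-1, 0.790 at drr-2 and 0.873 at ifg-1. It was 1.19 at iff-2, 1.36 at iff-1, 1.40 at ife-2 and 1.36 at ife-4. Over the 2153 thresholded entries with a site in both replicates the median ratio was 1.26, with quartiles of 0.904 and 1.81. The ratios of ifet-1, drr-2 and ifg-1 thus lay below the lower quartile and the other 4 within the quartiles. With 1 value per replicate, the error of a single ratio is not known.

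**Figure D4:**
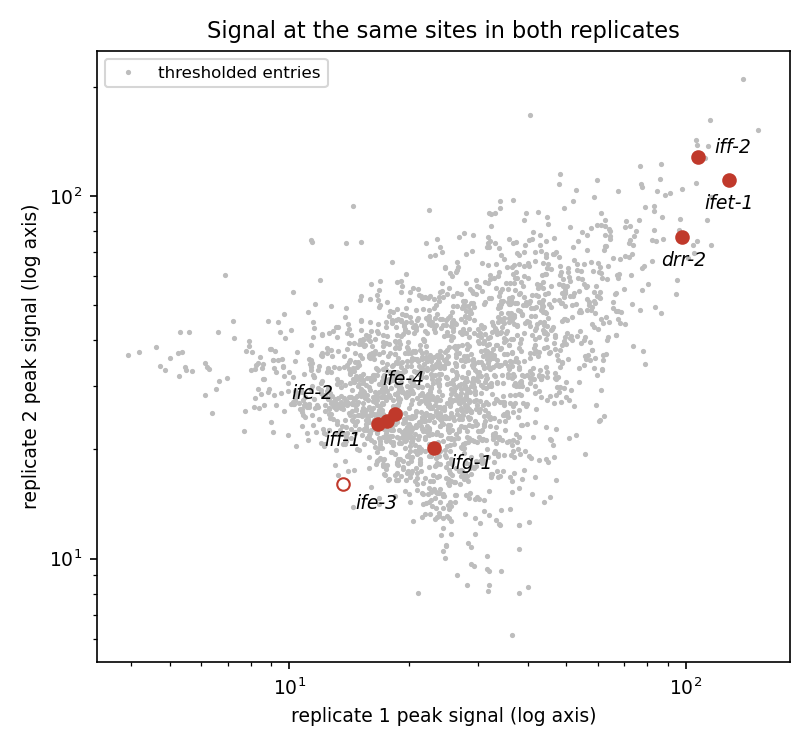
Replicate 2 against replicate 1 signal (both log axes) at each thresholded entry (grey) and at the strongest entry of the 8 genes with a value in both (red, filled where thresholded). The genes iff-2, ifet-1 and drr-2 lie at the upper right in both replicates, and iff-1, ife-2 and ife-4 lie together between 16.8 and 18.5 in replicate 1 and between 23.5 and 25.1 in replicate 2.

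Motifs were read in the 201 bp centred on each summit, on both strands, and overlaps between motifs were allowed. Each of the 3 strongest entries lacked the strict FoxA site (TGTTTAC or TGTTTGC) in this window. Of the 7, ife-2 alone held it, as TGTTTGC beginning 18 bp downstream of its summit. Across the thresholded set 20.6% of windows held it. The looser PHA-4 consensus stood in 5 of the 7 windows, at iff-1, iff-2, drr-2, ife-2 and ife-4, against 61.1% of all thresholded windows. At iff-1 its only word was TATTTAT on the opposite strand, 92 bp downstream of the summit and outside the sequence printed above. At iff-2 its words were TGTTTGT, beginning 80 bp upstream of the summit, and TATTTAC, beginning 58 bp downstream. Neither lies at the summit itself, and with 50 bp on each side the consensus stood at drr-2, ife-2 and ife-4 only, against 42.5% of all windows. The window of ifet-1, the strongest of the 10, and that of ifg-1 held no word of the consensus. Below the threshold, the windows of ife-1, ife-3 and ife-5 all held it, also with 50 bp on each side. The share over all entries below the threshold is not given here.

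The word GAGAGA stood in 3 of the 7 windows, at ifet-1, drr-2 and ife-4, against 47.7% of the set. At ife-4 it formed a run of CT repeats that began 59 bp upstream of the summit, and the entry of ife-3, below the threshold, held a GA run that began 57 bp upstream. The word GACGCAGA stood in 2 of the 7, at drr-2 and ife-4, against 16.7% of the set. At drr-2 it began 53 bp upstream of the summit, and at ife-4 it began 6 bp downstream. No word of 7 letters or more was common to the windows of iff-2, ifet-1 and drr-2. Of the 6-letter words, 5 were common to all 3. They were AAAATT (in 32.5% of thresholded windows), CAAACA (29.6%), ATACAC (14.7%), CACGCG (11.9%) and TACGCA (11.3%). On its other strand CAAACA reads TGTTTG, the first 6 letters of the strict FoxA word TGTTTGC. In windows 500 bp away the shares were 63.1% for AAAATT, 16.5% for CAAACA, 6.48% for ATACAC, 2.39% for CACGCG and 3.26% for TACGCA. These words were picked after the windows were read, so they describe the 3 sites only. The GC content of the windows was 49.75% at iff-2, 44.8% at ifet-1 and 50.25% at drr-2, with 40.8% at iff-1 and at ifg-1, against a median of 44.8% over the set. A motif match is a description of the letters and does not show a bound site.

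Other translation factor genes gave a scale for these values. Of 30 further initiation factor genes, 14 had a thresholded entry in the gene window (46.7%, against 12.9% of all genes), with a median signal of 49.2 and a highest of 118. The strongest were at genes of eIF3 subunits, the complex that joins the mRNA to the small ribosomal subunit: eif-3.C with 118 (52.2 in replicate 1 and 66.6 in replicate 2) and eif-3.B with 113 (58.6 and 54.3). These were followed by the poly(A)-binding protein gene pab-2 (92.1), eif-3.E (76.7, shared with B0511.17), eif-3.D (54.1, shared with R08D7.4) and the eIF4A helicase gene inf-1 (50.1). The inf-1 summit lies at -1124 bp from its 5' end, in the promoter window of flap-1 and outside that of inf-1. The eIF3 gene egl-45 and the start-codon selection gene eif-1 had no thresholded entry, with strongest pooled signals of 17.0 and 25.4. No gene of this list reached the pooled signal of drr-2, iff-2 or ifet-1.

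Of the 6 elongation factor genes, 5 had a thresholded entry (83.3%, against 12.9% of all genes), with a median of 134. They were eef-1G (150.3, shared with ctf-4), eef-1A.1 (147, shared with rfc-4), eef-2 (134, shared with clsp-1), eef-1A.2 (113) and eef-1B.1 (66.4, shared with aco-2), and the exception was eef-1B.2 (30.4). Neither of the enzymes that make hypusine on eIF5A had a thresholded entry, against the same 12.9% of all genes: dohh-1, the hydroxylase, had a strongest pooled signal of 19.8 (17.7 in replicate 1 and no entry at the site in replicate 2), and dhps-1, the deoxyhypusine synthase, had 9.41. Of 4 genes for partners of IFET-1 and the IFE proteins, the DEAD-box helicase gene cgh-1 (77.8) and the decapping cofactor gene patr-1 (38.9) had a thresholded entry (again beside 12.9% of all genes). At patr-1, whose promoter is shared with dna-2, the replicates differed, with 6.19 in replicate 1 and 33.8 in replicate 2. The RNA-binding gene car-1 (27.6) and the P granule gene pgl-1 (30.4) had none. These lists too were set with results of these data known, and no list was tested against another.

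**Figure D5:**
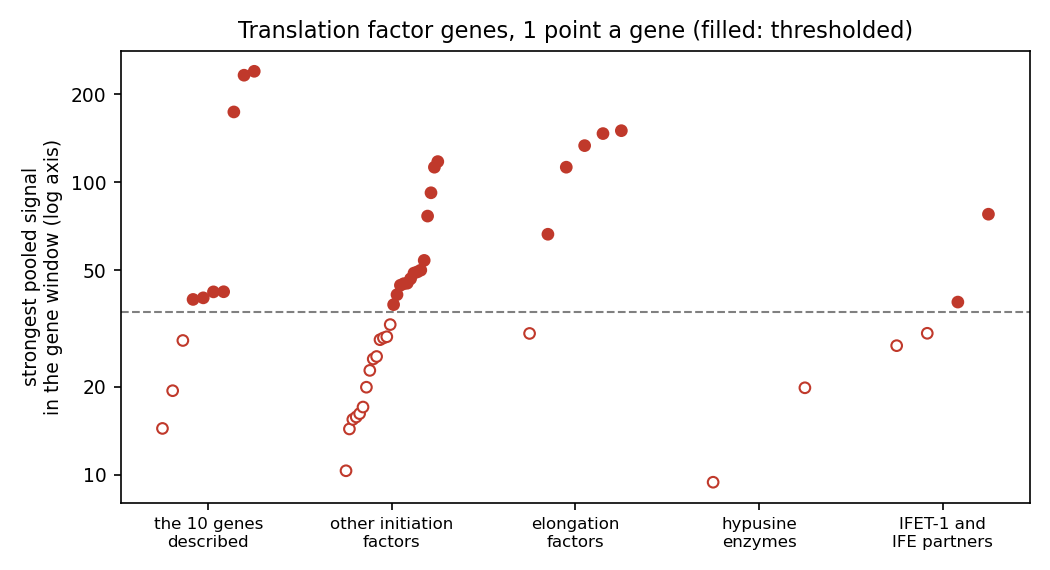
Strongest pooled signal in the gene window (log axis), 1 point for each gene with a pooled entry, for the 10 genes described and the 4 other lists, filled where thresholded, with a dashed line at the weakest thresholded entry (35.9). The highest points are ifet-1, iff-2 and drr-2 (174 to 240.0), followed by elongation factor genes up to 150.3.

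By pooled rank, the entries next to the 3 strongest were as follows. Directly above and below iff-2 stood entries nearest to pha-4 (234, at -3821 bp) and hsr-9 (216, at -167 bp). Directly above and below ifet-1 stood entries nearest to Y17G9B.5 (240.3) and the ribosomal protein gene rpl-15 (234.5). For drr-2 they were entries nearest to nspc-17 (175) and tag-340 (174). The replicate signals at these neighbours ran from 83.0 to 116 in replicate 1 and from 73.1 to 138 in replicate 2, and those of the 3 genes ran from 97.6 to 129 and from 77.1 to 128.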

How the data were processed

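ChIP-seq of eGFP-tagged PHA-4 was analysed from the processed peak lists of 2 biological replicates on ce11. Per the labels and the deposited readme, the authors called entries on each replicate and on both pooled, against control reads, kept weak entries as input for IDR and derived the thresholded set from these lists. The signal of each entry is the authors' deposited value from their peak caller. Neither caller nor aligner, nor the cutoff applied in the IDR step, is given in the sources used here. The thresholded set equals the 2177 strongest pooled entries, and the replicate lists share 0 identical intervals. The ce10 lists were not used.

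Summits were set against Ensembl release 115 genes of the same assembly (19973 nuclear protein-coding genes). Where several entries overlapped a site, the strongest was taken. Gene windows, promoter windows and motif windows are as given with the results. The genes, lists and motifs were chosen with earlier results of these data known. Named genes were the 10 genes, genes sharing their promoters, up to 6 genes with and, in alphabetical order, the leading 2 without a thresholded entry from each other list, and the entries ranked next to genes at rank 100 or better. The names eft-3, eft-4, iftb-1 and ppp-1 were not matched as symbols. Genes outside this rule are named for position only. Window and motif functions were tested on simulated entries. No test was made, since there is 1 group. The labels give the replicates as separate biosamples. Alternatives were other windows, overlap rules, a stricter set and each replicate alone. Tools were Python 3.11.15, numpy 2.4.6, pandas 2.3.3 and matplotlib 3.10.9.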

Additional observations from a re-analysis of the deposited data

How the results depend on the processing

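Of 68 alternative values, 51 stayed within 1.5 times a count or within the spread of the replicates for a rank. For ranks with a replicate left out, the values were the replicate ranks themselves, from which that spread also came. For those ranks the count of 51 is therefore no measure of stability. The count of 7 genes with a thresholded entry was 7 with 1000 bp upstream (10.4% of all genes) and with any overlap (13.4%). It was 5 with 500 bp upstream (8.89%), and 6 to 7 with either replicate left out (12% to 13.3%). Among the stronger 1088 thresholded entries it was 3 (6.91% of all genes), the 3 being iff-2, ifet-1 and drr-2, since the other 4 rank lower. With 500 bp upstream the strongest entry fell to pooled rank 5283 for ifet-1, 14750 for ife-3 and 18947 for ifg-1, because their upstream entries lie farther away, and ife-5 had no pooled entry within 1000 bp. With a replicate left out the ranks ran from 3 to 15 for ifet-1, 8 to 12 for iff-2, 22 to 77 for drr-2, 1277 to 2496 for ifg-1, 1839 to 1951 for iff-1, 1903 to 2101 for ife-2, 2786 to 3660 for ife-3 and 1690 to 1838 for ife-4. They were 5727 for ife-1 in replicate 2 alone and 3990 for ife-5 in replicate 1 alone, where the other replicate had no comparable entry, and ranks come from lists of different lengths. With 50 bp on each side of the summit the PHA-4 consensus stood at 3 genes (42.5% of thresholded windows) and GACGCAGA at 1 (12.4%). Other initiation factors with a thresholded entry numbered 9 of 30 with 500 bp upstream (8.89% of all genes). With a replicate left out they numbered 10 to 15 (12% to 13.3% of all genes). Beside the same shares, partner genes numbered 1 of 4 with 500 bp upstream and 1 to 2 with a replicate left out. Hypusine enzymes numbered 0 to 1 of 2. Sharing of promoters held for 4 genes with a window of 500 bp, and replicate sites for 5 genes with summits within 50 bp. The shares of the whole thresholded set under these changed rules are not given here, so the counts are a description only. The unknown depth, the single group and the 2 replicates limit what these values show: a missing entry is not a measured absence of binding.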
